A study of Vitis vinifera with 36 samples.

Results

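The 112 genes described here carry annotations of the ubiquitin pathway or of proteases. They were taken from the tables of differentially expressed genes (DEGs) and of expression values that accompany the study, as far as these tables are in hand, by the words of the annotation alone: ubiquitin, F-box, RING, proteasome, protease, proteinase, subtilisin, subtilase, aspartyl or carboxypeptidase. Each gene had 1 probe, so that the 112 genes correspond to 112 of the 26564 probes measured on all arrays and of the 4118 probes in the tables in hand. Of these genes, 14 came from the DEGs between seeded (SD) and seedless (SL) varieties at the first stage (S1), 49 from those at the second stage (S2) and 57 from the DEGs between Red Globe (RG) and Thompson Seedless (TS) at the third stage (S3). The S1 and S2 lists together gave 60 genes, 6 of which were also in the S3 list, and 1 gene, a 20S proteasome subunit, came from the table of expression values. The S3 list is in hand only in part, and all its genes in hand have higher values in RG.

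Ubiquitin is a small protein that is joined to other proteins by an enzyme cascade of an activating enzyme (E1), a conjugating enzyme (E2) and a ligase (E3), and chains of it send a protein to the proteasome. RING proteins are E3 ligases of a single chain, F-box proteins are the exchangeable part of SCF ligases that binds the target, deubiquitinating enzymes remove ubiquitin, and SUMO is a related modifier with enzymes of its own. Proteases cut proteins directly. In plants the subtilases are secreted serine proteases, the aspartic proteases and serine carboxypeptidases act in the vacuole or the cell wall, and seeds are known both for storing protein and protease inhibitors and for the proteolysis that accompanies the loss of the nucellus and of seed coat layers.

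RNA of ovules and developing seeds was hybridised to a 1-colour Agilent array, with 3 arrays for each of 12 groups and 36 arrays in all. The SD varieties were Italia (IT) and RG and the SL variety was TS, a stenospermocarpic variety whose seeds stop growing after fertilisation. Sampling took place before bloom (S1), after bloom (S2), at pea size (S3) and at veraison (S4). All vines were field-grown table grapes under conventional management without hormone treatment, and the samples of S1 were ovules taken out of flowers before bloom. Autumn Royal was not analysed here, so that TS alone stands for the SL side. The labels do not say that replicates came from separate vines, and p-values measure the spread between these samples.

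Values are given as scaled log2 signals, that is the log2 of the probe's mean intensity minus the 75th percentile of its array, so that 0 is the level of the 75th percentile. Levels of different probes are not comparable with each other. A gene was called when the adjusted p of a limma fit over all 36 arrays was below 0.05 and the log2 difference above 1 in either direction. All 112 genes passed the filter on dim probes, which kept a probe when some group had a signal well above background on all its 3 arrays, and 23152 probes were tested. Where some array of the dimmer group had no signal well above background, the difference is also given as a lower bound (at least N-fold), which sets the mean of the brighter group against the higher of the dim signal and the lowest signal that was well above background on the same array. The 75th percentile before scaling ran from 100.4 to 1359, and the share of probes well above background from 39.4 to 90.3%, the lowest being IT S1 replicate 3. The IT arrays filled 5 slides and the RG and TS arrays 7 others, none of them shared, and for this reason slide and variety cannot be told apart wherever IT is set against RG or TS.

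Several markers of tissues differed between the S4 groups, not all of a tissue in the same direction. The summed log2 signal of both ovule and seed coat markers, VviAGL11 and inner no outer, ran from 5.79 to 6.19 in RG and from 5.18 to 6.23 in IT at S4, but from 0.64 to 2.60 in TS. This sum was in effect that of VviAGL11. Inner no outer was well above background on 0 RG, 0 TS and 1 IT arrays at S4, with means of -7.20, -6.62 and -5.31. The paper ties the level of VviAGL11 to the alleles of this gene, and the part of tissue in it was not tested. The summed signal of the 5 green tissue markers ran from 3.66 to 4.93 in RG, 2.14 to 2.72 in IT and 5.53 to 6.06 in TS at the same stage. One of them, the Rubisco small subunit, had means of 3.42 in RG and 3.09 in TS. The sum of both petal and stamen markers was 0.07 to 3.21 in TS against -0.55 to -0.12 in RG, but these markers went opposite ways. VviAP3b had means of 1.90 in TS and -0.55 in RG, and VviAP3a of -4.50 in TS and -3.03 in RG. The seed storage marker, an 11S globulin, ran from -1.21 to 8.97 over the IT S4 arrays and was below 0 on all other arrays. The part of these tissues in the differences that follow was not tested, and in bulk samples fewer cells of a type and less RNA per cell cannot be told apart.

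The comparisons that chose the genes are given as a description. In the S1 list 7 of 14 genes had a higher and 7 a lower signal in the mean of IT and RG than in TS at S1, with log2 differences from -2.27 to 4.36. In the S2 list 45 of 49 genes were lower in IT and RG than in TS, with a median of -0.82 and a range from -2.82 to 5.09. At S3 all 57 genes of the S3 list had the higher signal in RG, with a median log2 difference of 1.75 and a range from 1.09 to 6.09. No array of S4 and no IT array of S3 chose any gene. Differences at S4 could therefore be tested for all 112 genes, RG against TS at S3 for the genes of the S1 and S2 lists, and RG against TS at S1 and S2 for the genes of the S3 list. The 6 genes in both kinds of list were used at S3 as well as at S1 or S2, so that no p is given for them in these comparisons.

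**Figure D1:**
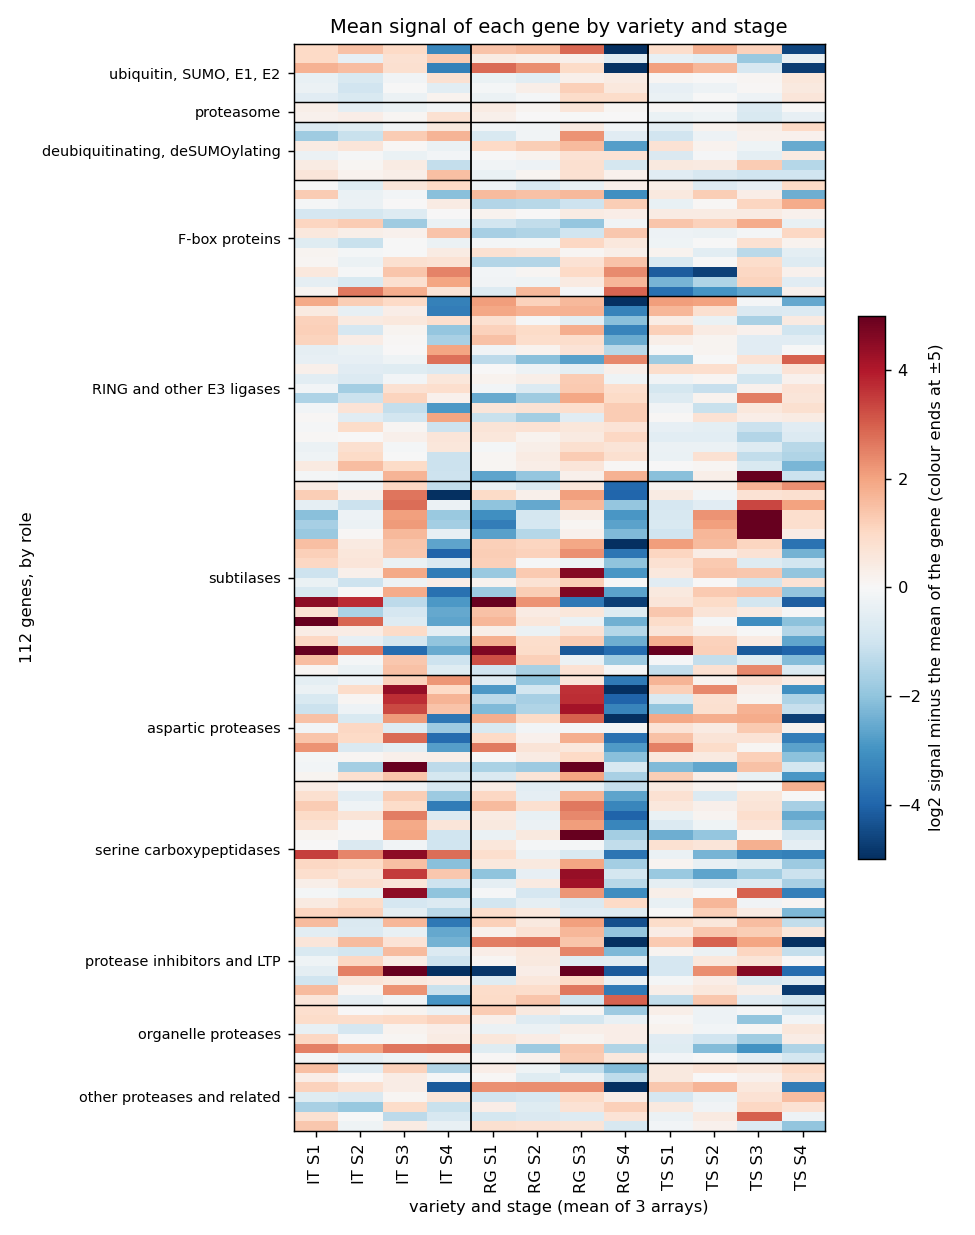
Mean scaled log2 signal of the 112 genes (rows, grouped by role) in the 12 groups of 3 arrays (columns), each row centred on its own mean, with colour from blue (lower) to red (higher) and ending at ±5. In RG, where 105 genes were well above background on all 3 arrays at S3 and 69 at S4, the S4 column is blue for most subtilases, aspartic proteases, serine carboxypeptidases and inhibitors.

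Fewer of these genes were detected at veraison than at any other stage of the same variety in RG and TS. In RG 105 of 112 genes were well above background on all 3 arrays at S3 and 69 at S4, and in TS the counts were 101 and 77. The genes were chosen on arrays of S1, S2 and S3 and on none of S4, and the part of this choice in the counts was not tested. Of the 60 genes of the S1 and S2 lists 53 passed at S3 and 36 at S4 in RG, of the 57 genes of the S3 list 57 and 34, and of all probes tested 78.0% and 74.5% (in TS 84.0% and 76.0%). In IT, whose count was lowest at S1 (53, with the dim replicate 3), it was 83 at S4. At S4 the signal was well above background on no array for 19 genes in RG, 12 in IT and 9 in TS. The mean signal of a gene was highest at S3 for 61 genes in RG, 39 in IT and 30 in TS. Among the 60 genes of the S1 and S2 lists, 54 of which were not chosen at S3, the counts were 25 in RG, 22 in IT and 24 in TS (for the 57 genes of the S3 list, which were chosen for high RG values at S3, they were 40, 21 and 8).

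At S4, RG and TS differed in 42 of the 112 genes (37.5%), of which 14 were higher and 28 lower in RG, against 16.8% of all probes tested (6.91% higher and 9.92% lower) and 28.8% of the other probes of the same tables (10.5% higher and 18.3% lower). The median log2 difference RG minus TS was -0.27 over the 112 genes and -0.05 over all probes. Taken by list, 38.3% of the genes of the S1 and S2 lists were called, against 36.2% of the other probes of these lists, and 36.8% of those of the S3 list, against 28.4%. Of the F-box genes 4 of 12 were called higher and 0 lower in RG, and of the 19 RING and other E3 ligase genes 6 were higher and 6 lower. Of the subtilases 0 of 20 were higher and 9 lower in RG, of the serine carboxypeptidases 0 and 3 of 14, of the aspartic proteases 0 and 2 of 11, of the protease inhibitors and lipid transfer proteins (LTP) 1 and 2 of 9, of the deubiquitinating enzymes 1 and 1 of 6, of the organelle proteases 1 and 1 of 6, and of the other proteases 1 and 4 of 7. Of the 6 genes of ubiquitin, SUMO, E1 and E2 and of both proteasome genes none was called by limma, and none had an unadjusted p below 0.05.

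RG and TS arrays of S4 with the same replicate number shared a slide, and all 42 called genes had the same sign on all 3 slides. The same arrays gave the calls, so that this agreement is a description and not a further test. It was not counted over all probes. The arrays of both varieties did not overlap for 49 of the 112 genes, against 29.2% of all probes tested. The count of 42 depended on the processing: it was 15 without scaling, 16 after another background correction (normexp), 21 when only the S4 arrays of RG and TS were fitted (32 when that fit had the replicate number as a block, an alternative chosen after seeing the data), 10 with the methods' t-test after Benjamini-Hochberg adjustment (35 at an unadjusted p below 0.05) and 31 to 41 when 1 array was left out (31 without TS S4 replicate 2). The share of all probes called fell as well, from 16.8% to 6.04% without scaling and 8.0% with normexp. It was 8.96% with only the S4 arrays of RG and TS (15.2% with the replicate block) and 4.11% with the adjusted t-test. Where only probes well above background on all 36 arrays were kept, 39 of the 112 genes were tested and 15 called, against 16.3% of all probes kept.

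**Figure D2:**
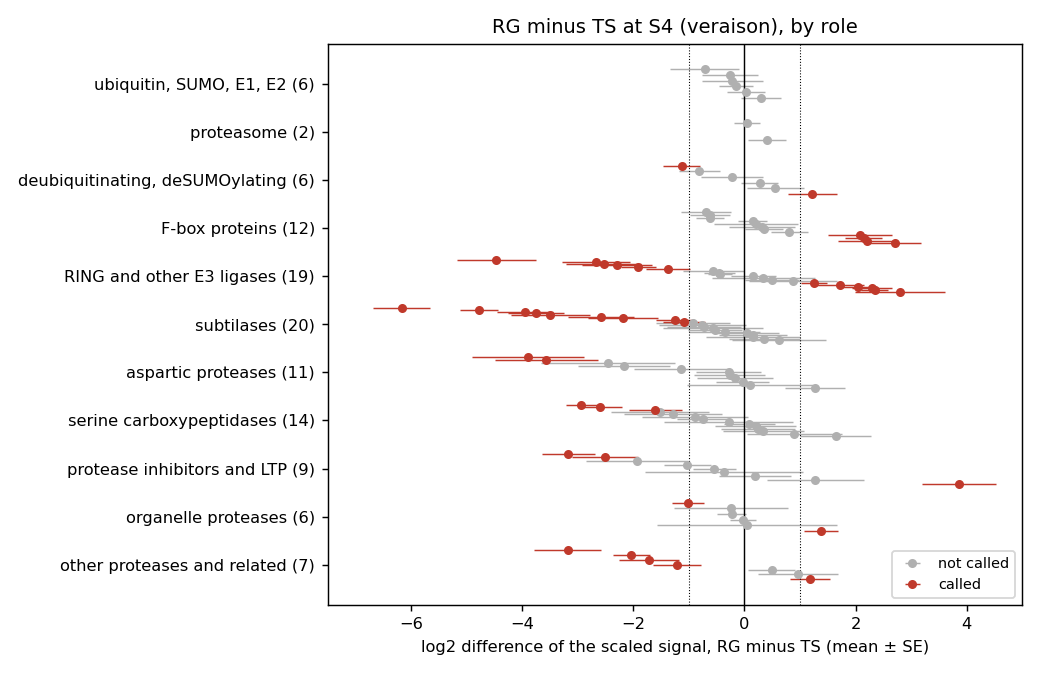
Log2 difference of the scaled signal between RG and TS at S4 (x axis, mean ± SE of the limma fit over 36 arrays, 3 arrays per group) for the 112 genes, grouped by role with the number of genes in brackets (y axis), with called genes in red and dotted lines at ±1. Called subtilases all lie left of -1, called F-box genes all lie right of 1, and genes of ubiquitin and the proteasome lie between both lines.

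None of the genes of the core of the pathway was called between RG and TS at S4. UBQ5 (VIT_07s0005g02160), annotated as ubiquitin itself, measured 3.99, 4.25 and 3.51 on the RG arrays and 4.03, 4.25 and 3.37 on the TS arrays, with a difference of 0.03 (SE 0.34, adjusted p = 0.985 from limma). RPN2 (VIT_10s0042g00800), a subunit of the 19S regulatory particle that recognises ubiquitinated proteins, measured 1.13, 1.06 and 1.39 in RG and 1.22, 1.30 and 0.94 in TS, a difference of 0.05 (SE 0.23, adjusted p = 0.963). In both genes the arrays of RG and TS overlapped. The 20S proteasome subunit alpha 2 (VIT_11s0052g01770), part of the ring that encloses the proteolytic sites, had a difference of 0.41 (SE 0.34, adjusted p = 0.501). The E1 subunit ECR1 (VIT_05s0020g02820), which activates the ubiquitin-like protein RUB, and a gene for a protein with a ubiquitin interaction motif (VIT_18s0072g00780) had differences of -0.15 and 0.30, with adjusted p of 0.866 and 0.69. A p that misses the threshold does not show equal levels. IT differed from RG in the same stage for SUMO2, E2 C, SUM2 and UBQ5, with RG minus IT at -1.56, -2.06, -1.85 and 1.05 (adjusted p = 0.0294, 0.0125, 0.00595 and 0.0206), and slide cannot be told apart from variety there. SUMO2 and E2 C were not well above background in RG at S4, so that the size of their differences is not measured exactly.

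SUMO2 and E2 C fell in IT from pea size to veraison. SUMO2 (VIT_05s0029g00170), a modifier that is attached to nuclear proteins, fell in IT from 0.13, -0.78 and -1.84 at S3 to -4.50, -4.12 and -6.40 at S4, with no overlap, a log2 change of -4.18 (SE 0.55, adjusted p = 1.15e-06 from limma) and at least 17.6-fold. Its probe was well above background on 2 of 3 IT arrays at S4, on 0 in RG and on 1 in TS. E2 C (VIT_06s0061g00070), whose relative in animals works with the anaphase-promoting complex in mitosis, fell in IT from 0.00, -1.11 and -1.82 to -5.31, -5.53 and -4.83, a change of -4.24 (SE 0.62, adjusted p = 6.12e-06, at least 18.9-fold), and was well above background on 2, 0 and 1 of the S4 arrays of IT, RG and TS. Between RG and TS at S4 the differences of both genes were -0.22 and -0.71 and neither was called. SUM2 (VIT_19s0135g00260), a further SUMO gene, had a change of 0.53 in IT from S3 to S4 (adjusted p = 0.493) and was not called there either.

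Among the 6 genes of deubiquitinating and deSUMOylating enzymes, 2 were called between RG and TS at S4, in opposite directions. UBP12 (VIT_11s0016g05880), a ubiquitin-specific protease known in Arabidopsis from flowering time and the clock, measured -5.12, -4.36 and -4.79 in RG and -6.21, -6.07 and -5.66 in TS, where it was not well above background on any array. Its difference was 1.22 (SE 0.43, adjusted p = 0.0478 from limma), at least 2.33-fold, and with the replicate number as a block its adjusted p was 0.0523, and 13 of 19 alternatives lost the call. Ubiquitinyl hydrolase 1 (VIT_02s0234g00100) was lower in RG, with -0.30, -0.31 and -0.67 against 1.13, 0.74 and 0.23 in TS and a difference of -1.13 (SE 0.33, adjusted p = 0.0153). Its call was lost in 6 of 19 alternatives. From S3 to S4 in IT, UBP12 rose by 1.21 on the log2 scale and a ubiquitin thiolesterase (VIT_15s0046g01070, chosen after its value was seen) fell by 1.59, while the other 4 genes were not called.

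F-box genes were higher in RG at S4 wherever they were called. VIT_01s0011g05490, an F-box gene of the S2 and S3 lists, measured -0.83, -1.16 and -1.14 in RG and -3.38, -3.90 and -3.94 in TS at S4. The arrays did not overlap and RG was 6.50-fold higher, a log2 difference of 2.70 (SE 0.48, adjusted p = 0.000125 from limma). In TS this probe was well above background on 0, 1, 0 and 3 arrays at S1, S2, S3 and S4, and in RG on all 12. At S1, S2 and S3 the difference between RG and TS was 3.06, 4.60 and 2.55, at least 5.28-fold, 21.1-fold and 5.80-fold, values that the lists used in part. VIT_00s2507g00010, an F-box gene of the S1 and S2 lists, measured -0.71, -0.96 and -1.33 in RG and -3.19, -3.36 and -2.87 in TS at S4, a difference of 2.14 (SE 0.33, adjusted p = 1.87e-05). The IT arrays measured -0.80, -1.00 and -0.79 and overlapped with those of RG, and IT minus TS was 2.28 (SE 0.33). A further F-box gene, VIT_00s2015g00020, gave -0.59, -0.58 and 0.30 in RG, -0.09, -0.03 and 0.23 on the IT arrays and -3.13, -3.19 and -1.17 on those of TS, with 2.21 between RG and TS (SE 0.52, adjusted p = 0.00253). In these 3 genes every RG array at S4 was above every TS array. Between IT and TS at S4, 2 of the 12 F-box genes were called higher in IT and 1 lower. VIT_01s0011g05490 was not among those called higher in IT. At S3 neither of the latter genes was called, with RG minus TS at -0.03 and -0.66 on the log2 scale.

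RING genes were called in both directions. VIT_19s0014g02900, named after RNF185, an E3 ligase that in animals takes part in the clearance of proteins from the endoplasmic reticulum, measured 1.39, 1.26 and 1.14 in RG, -0.02, 0.06 and 0.36 on the IT arrays and -1.40, -1.13 and -0.71 on those of TS at S4. RG was 5.08-fold higher than TS, a log2 difference of 2.35 (SE 0.24, adjusted p = 5.5e-08 from limma), and IT lay between both without overlap (1.21 against TS and 1.13 for RG against IT, adjusted p = 0.000364 and 0.000819). RGLG2 (VIT_00s0780g00040), whose Arabidopsis namesake is a membrane-bound RING ligase that acts in hormone signalling, measured -1.87, -2.73 and -4.29 in RG at S4 and -5.88, -5.71 and -5.69 in TS, where 1 of 3 arrays was well above background. Its difference was 2.80 (SE 0.81, adjusted p = 0.0131), at least 6.96-fold. At S3 the order was the opposite, with -4.19, -4.22 and -4.82 in RG and 0.46, 0.56 and 0.27 in TS, a difference of -4.84 (SE 0.81, adjusted p = 4.22e-05). RGLG2 thus changed its order between pea size and veraison, with a change from S3 to S4 of -6.19 in TS (SE 0.81, adjusted p = 1.36e-06, at least 73.0-fold) and of 1.45 in RG (adjusted p = 0.166).

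The lowest values of RING genes in RG relative to TS at S4 were those of a pair of the C3HC4 type, whose zinc-binding motif binds the E2. VIT_19s0090g00400 measured -7.20, -7.94 and -3.80 in RG, with 1 of 3 arrays well above background, and -2.44, -1.19 and -1.92 in TS, a difference of -4.46 (SE 0.71, adjusted p = 3.37e-05 from limma) and at least 12.8-fold. The RG arrays were far apart, and in a fit of the S4 arrays of RG and TS alone, with the replicate number as a block, its adjusted p was 0.0564. At S1, S2 and S3 the same gene had means of 2.82, 1.86 and 2.36 in RG. VIT_00s0475g00020 measured -4.63, -4.42 and -5.28 in RG and -1.96, -1.92 and -2.43 in TS, 6.39-fold lower in RG (-2.68, SE 0.61, adjusted p = 0.00193). The IT arrays of the latter measured -3.37, -3.80 and -7.46 and overlapped with those of RG, and IT minus TS was -2.78 (adjusted p = 0.000878, at least 5.23-fold).

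ATL3B (VIT_14s0128g00120), a RING-H2 ligase of the membrane-anchored ATL family, was lower in IT than in both other varieties at veraison. It measured -4.79, -5.77 and -5.35 in IT, -1.47, -1.43 and -0.55 in RG and -2.16, -2.13 and -0.65 in TS. RG was above IT by 4.16 (SE 0.48, adjusted p = 3.23e-07, at least 17.8-fold) and IT minus TS was -3.66 (SE 0.48, adjusted p = 1.59e-06, at least 12.6-fold), while RG minus TS was 0.50 (adjusted p = 0.59). Of this group 3 genes rose in IT from S3 to S4: the RING gene VIT_19s0015g01000 from -2.98, -2.85 and -2.58 to 0.09, 0.39 and 0.12 (change 3.00, SE 0.55, adjusted p = 0.000103), SIAH1 (VIT_00s0726g00010, of a family of E3 ligases first known from Drosophila) by 2.89 (adjusted p = 0.0064) and the RING gene VIT_06s0004g05080 by 1.96 (adjusted p = 0.000346). In none of these 3 did the IT arrays of S3 and S4 overlap. In the same step 9 of the 19 genes fell, against 14.2% of all probes falling and 10.4% rising (26.4% and 11.6% of the other probes of the tables).

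**Figure D3:**
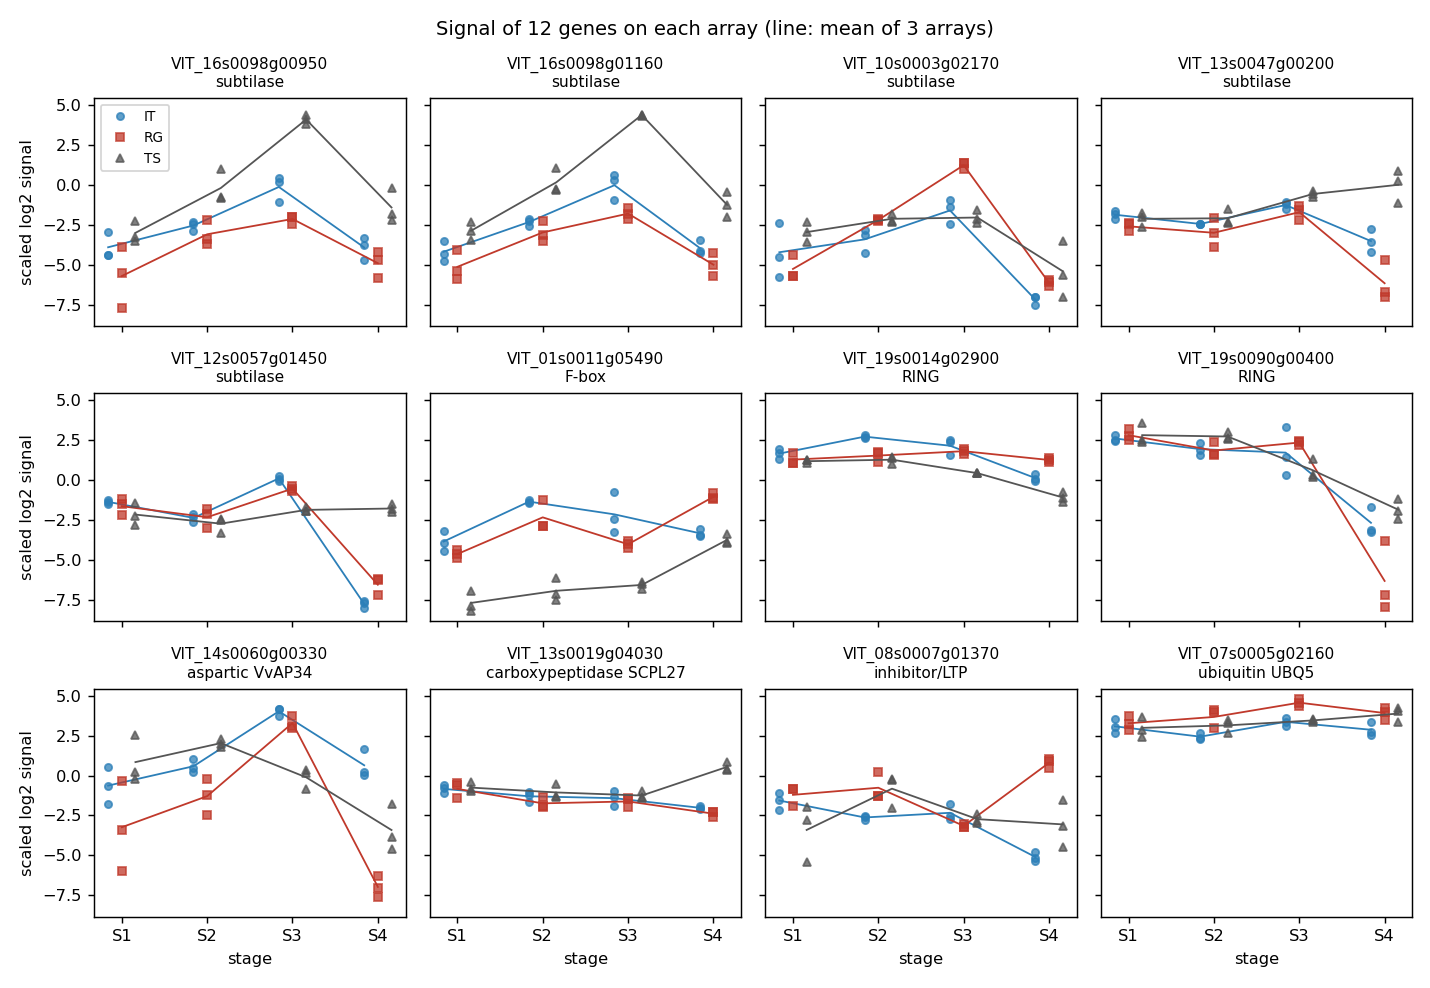
Scaled log2 signal (y axis) of 12 genes on each of the 36 arrays by stage (x axis), with blue circles for IT, red squares for RG and grey triangles for TS, and lines through the means of 3 arrays. The subtilases VIT_13s0047g00200 and VIT_12s0057g01450 measure -4.74 or less on all RG arrays at S4 and -2.00 or more on all TS arrays, and UBQ5 lies between 2.29 and 4.79 on all 36 arrays.

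Subtilases held the largest differences between RG and TS at S4 among the 112 genes, and all 9 called were lower in RG. VIT_13s0047g00200, annotated as subtilisin and located on chromosome 13, measured -7.03, -6.74 and -4.74 in RG, with 1 of 3 arrays well above background, and 0.86, 0.26 and -1.11 in TS. The log2 difference was -6.17 (SE 0.51, adjusted p = 1.07e-09 from limma), TS being at least 57.6-fold higher, and within the 3 slides it ran from -7.89 to -3.62. IT lay between, with -4.22, -3.60 and -2.75, and IT minus TS was -3.53 (adjusted p = 5.18e-06). This gene is of the S2 list, and at S3 its arrays measured -1.61, -1.36 and -2.17 in RG and -0.75, -0.41 and -0.56 in TS (-1.14, adjusted p = 0.0972, not called). It then fell by 4.45 in RG from S3 to S4 (adjusted p = 5.4e-08, at least 17.5-fold) while the change in TS was 0.58 (adjusted p = 0.42), and the difference between both changes was -5.03 (SE 0.71, adjusted p = 7.59e-06).

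VIT_12s0057g01450, a subtilisin protease gene of the S3 list on chromosome 12, was near background in both SD varieties at veraison. It measured -6.16, -6.28 and -7.21 in RG and -7.54, -8.03 and -7.70 in IT, well above background on none of these arrays, and -1.83, -1.50 and -2.00 in TS. RG minus TS was -4.78 (SE 0.34, adjusted p = 1.1e-10 from limma), at least 22.1-fold, and IT minus TS was -5.98 (SE 0.34, adjusted p = 7.86e-13), at least 24.5-fold. In IT the step from S3 (0.08, 0.27 and -0.02) to S4 was -7.87 (adjusted p = 3.38e-15), at least 90.4-fold down, whereas the TS arrays of S3 had measured -1.95, -1.95 and -1.69. The S3 list was chosen for RG above TS at S3, where this gene differed by 1.33, so that its order at S4 was the opposite of the one it was chosen for.

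On chromosome 16, 3 subtilase genes of the S2 list, all among the genes with the prefix VIT_16s0098, lie close to each other by their gene numbers. VIT_16s0098g00950, VIT_16s0098g01160 and VIT_16s0098g00970 had their highest mean of the 12 groups in TS at S3. The first measured 4.37, 3.80 and 4.11 in TS and -1.99, -1.99 and -2.44 in RG, 75.1-fold higher in TS (-6.23, SE 0.71, adjusted p = 1.71e-07 from limma). The second gave 4.32, 4.41 and 4.40 against -1.82, -1.44 and -2.15 (-6.18, SE 0.51, adjusted p = 7.85e-10) and the last 4.74, 4.67 and 4.87 against -0.52, -0.40 and -0.97 (-5.39, SE 0.60, adjusted p = 1.01e-07). For each of the 3 genes no RG array at S3 reached any TS array. At S4 the same order held with smaller differences of -3.49, -3.75 and -2.58 (adjusted p = 0.00066, 3.72e-06 and 0.00224), at least 11.2-fold and 13.4-fold for the first and second, which were not well above background on every RG array. In IT all 3 fell from S3 to S4, with changes of -3.79, -3.93 and -2.04. Whether the probes of these related genes tell their transcripts apart was not tested.

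A pair of subtilases on chromosome 10, VIT_10s0003g02170 and VIT_10s0003g02220, was in all 3 lists and had the opposite signs at S1 and S3. As a description, RG minus TS was -2.31 and -2.41 at S1 and 3.28 and 3.27 at S3. At S4 neither differed past the threshold (-0.73 and -0.92, adjusted p = 0.562 and 0.416 from limma), and the RG arrays were not well above background. In IT, which chose no gene at S3, the former fell from -1.41, -0.96 and -2.44 at S3 to -7.01, -7.01 and -7.56 at S4, a change of -5.59 (SE 0.67, adjusted p = 3.07e-07) and at least 27.5-fold, and the change of the latter was -5.37 (adjusted p = 5.42e-07), at least 24.9-fold. Of the 20 subtilases 13 fell and 0 rose in IT from S3 to S4, where 14.2% of all probes fell and 10.4% rose (26.4% and 11.6% of the other probes of the tables). The subtilase VIT_09s0002g00450, of the S2 list, fell in all 3 varieties: from 2.96, 2.77 and 2.75 to -5.93, -3.66 and -5.38 in RG (change -7.82, SE 0.63, adjusted p = 1.35e-10, at least 225.9-fold), and its changes in IT and TS were -4.02 and -4.77 (adjusted p = 1.48e-05 and 1.66e-06).

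Of the 11 aspartic protease genes, 2 were called between RG and TS at S4, and both were lower in RG. VvAP24 (VIT_08s0007g02470) measured -6.78, -4.77 and -3.35 in RG, -1.63, -1.37 and -0.22 in TS and 2.48, 2.38 and -2.52 in IT. RG was below TS (-3.89, SE 1.01, adjusted p = 0.00607 from limma, at least 13.2-fold) and below IT (-5.75, SE 1.01, adjusted p = 9e-05, at least 47.8-fold). VvAP34 (VIT_14s0060g00330) measured -7.03, -7.60 and -6.30 in RG, well above background on no array, -4.62, -1.76 and -3.87 in TS and 0.04, 0.22 and 1.67 in IT. Its difference from TS was -3.56 in RG (adjusted p = 0.00643, at least 7.71-fold, and 0.0584 when only the S4 arrays were fitted with the replicate block) and 4.06 in IT (adjusted p = 0.00138). At S4 IT was thus above and RG below TS for this gene. VvAP34 changed its order between RG and TS with the stage. The S3 list chose it for its higher signal in RG at S3 (3.40). At S1 the RG arrays measured -3.38, -5.98 and -0.35 and the TS arrays -0.21, 0.22 and 2.51, a difference of -4.08 (SE 0.93, adjusted p = 0.00641), and at S2 the difference was -3.32 (SE 0.93, adjusted p = 0.0322). The call at S1 was lost in 6 of 18 alternatives and that at S2 in 9 of 18. Its neighbour on chromosome 14, VvAP35 (VIT_14s0060g00350), was lower in RG than in IT at S4, with a log2 difference of -5.69 (adjusted p = 0.000746, at least 35.9-fold), and its RG minus TS difference of -2.46 was not called (adjusted p = 0.178).

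From S3 to S4 in IT 6 of the 11 aspartic protease genes fell and 0 rose, against 14.2% and 10.4% of all probes (26.4% and 11.6% of the other probes of the tables). VvAP26 (VIT_09s0018g01670) fell from 0.65, 0.58 and -0.06 to -7.07, -6.61 and -5.22, by 6.69 on the log2 scale (SE 0.63, adjusted p = 5.64e-09 from limma) and at least 85.0-fold, with 1 of 3 arrays well above background at S4. VvAP33 (VIT_13s0084g00820), in the S2 and S3 lists, fell from 2.47, 2.13 and 0.16 to -4.03, -3.33 and -5.12, a change of -5.75 (adjusted p = 6.12e-06). At S4 VvAP33 was not well above background on any RG array and on 1 TS array, and RG minus TS was -1.14 (adjusted p = 0.427).

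Of the 14 serine carboxypeptidase genes, whose family holds both peptidases and acyltransferases in plants, 3 were lower in RG than in TS at S4. SCPL27 (VIT_13s0019g04030) measured -2.26, -2.31 and -2.60 in RG, -2.05, -2.08 and -1.93 on the IT arrays and 0.83, 0.42 and 0.38 on those of TS. TS was 7.63-fold above RG (-2.93, SE 0.28, adjusted p = 1.5e-08 from limma) and the difference of IT from TS was -2.56 (SE 0.28, adjusted p = 9.83e-08). In TS this gene had risen from -0.98, -1.35 and -1.43 at S3, by 1.79 (adjusted p = 1.99e-05), while its changes in RG and IT were -0.77 and -0.60 and neither was called. A serine carboxypeptidase S10 gene of the S3 list (VIT_01s0011g02030) measured -2.86, -3.00 and -3.18 in RG and -0.65, 0.25 and -0.85 in TS at S4, a difference of -2.60 (SE 0.40, adjusted p = 2.44e-05), and it fell in IT by 3.05 from S3 to S4 (adjusted p = 1.33e-06).

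SCPL13 (VIT_11s0052g00770) had the largest difference of the group between IT and each of the other varieties at S4. Its IT arrays measured -0.31, -0.47 and -0.36, those of RG -7.29, -7.88 and -5.35 and those of TS -7.72, -7.72 and -4.21, where 1 of 3 arrays of each was well above background. IT was at least 50.9-fold above RG (RG minus IT -6.46, SE 1.17, adjusted p = 0.000123 from limma) and at least 40.0-fold above TS (6.17, SE 1.17, adjusted p = 0.000183). As IT lies on slides of its own, this cannot be told apart from slide. A carboxypeptidase S10 gene in the S1 and S3 lists (VIT_03s0091g01290) had a difference of -1.29 between RG and TS at S4 and was not called (adjusted p = 0.384). In IT 7 of the 14 genes fell from S3 to S4 and 0 rose (14.2% and 10.4% of all probes, and 26.4% and 11.6% of the other probes of the tables). Among them were genes of a group of 4 on chromosome 3 that lie close to each other by their numbers, 3 of them SCPL17 genes, whose changes in IT ran from -3.61 in VIT_03s0088g00110 to -1.64 in VIT_03s0088g00160. These were chosen after their values were seen.

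Protease inhibitors and proteins of the inhibitor, seed storage and LTP family, small disulphide-rich proteins of seeds, fell in IT from S3 to S4 in 8 of 9 genes, a step in which 14.2% of all probes and 26.4% of the other probes of the tables fell. The largest change was that of VIT_02s0154g00320, which measured 6.08, 5.78 and 6.18 at S3 and -7.13, -7.28 and -1.36 at S4 in IT, with 1 of 3 S4 arrays well above background. It fell by 11.27 on the log2 scale (SE 1.42, adjusted p = 6.43e-07 from limma), at least 1733-fold. In RG and TS, where it measured 5.72, 5.85 and 5.64 and 5.37, 5.18 and 5.27 at S3, it fell too, with changes of -9.26 and -8.42 (adjusted p = 6.86e-06 and 4.77e-05), at least 613.6-fold and 315.4-fold. The TS arrays of S4 were far apart, at -6.76, 1.28 and -3.97. The inhibitor se60 (VIT_07s0130g00030) fell in TS from 2.57, 2.45 and 2.53 to -7.63, -2.66 and -5.17, a change of -7.67 (adjusted p = 3.49e-07, at least 152.9-fold), and its changes in RG and IT were -9.01 and -3.04 (adjusted p = 7.23e-09 and 0.0117).

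Between varieties at S4, VIT_08s0007g01370 of this family was the gene of the 112 with the largest positive difference of RG from TS. It measured 0.45, 0.88 and 1.06 in RG, -4.46, -3.17 and -1.55 in TS and -4.77, -5.16 and -5.38 in IT. RG was 14.5-fold above TS (3.86, SE 0.66, adjusted p = 9.38e-05 from limma) and at least 59.8-fold above IT (5.90, SE 0.66, adjusted p = 1.98e-07). It rose in RG from -3.24, -3.02 and -3.21 at S3, by 3.95 (adjusted p = 2.4e-05), and fell in IT by 2.77 (adjusted p = 0.00197). VIT_11s0016g05840, of the same family, was lower in RG than in TS, with -3.67, -3.45 and -1.53 against -0.53, 0.78 and 0.60 and a difference of -3.17 (SE 0.47, adjusted p = 1.36e-05). VIT_01s0011g06590 differed by -2.51 (adjusted p = 0.00288, at least 5.33-fold, and 0.0812 when only the S4 arrays were fitted with the replicate block), with arrays of -6.56, -3.20 and -5.90 in RG and -3.59, -2.48 and -2.07 in TS that overlapped.

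Of the 6 organelle protease genes none was called in IT from S3 to S4 by limma, and 1 of each direction was called between RG and TS at S4. Protease Do 9 (VIT_17s0000g07900), of the Deg family of chaperone proteases, measured -0.22, -0.57 and -0.83 in RG and -1.35, -1.60 and -2.83 in TS at S4, a difference of 1.38 (SE 0.31, adjusted p = 0.00146 from limma). The related DegP gene VIT_18s0072g00970 was lower in RG, with -1.83, -1.39 and -1.28 against -0.78, -0.83 and 0.17 and a difference of -1.02 (SE 0.28, adjusted p = 0.00963, and 0.0732 when only the S4 arrays were fitted with the replicate block). The call of Protease Do 9 was lost in 5 of 19 alternatives and that of the DegP gene in 8 of 20. A carboxyl-terminal proteinase (VIT_02s0109g00350) was above TS in IT at S4 by 4.25 (SE 1.62, adjusted p = 0.044, at least 19.0-fold), with arrays of -0.32, -0.40 and -0.12 in IT and -5.74, -5.06 and -2.80 in TS, a call that 8 of 17 alternatives lost. Among the remaining proteases, a metalloprotease (VIT_03s0038g01060) measured -7.64, -7.70 and -6.09 in RG, not well above background, and -4.42, -4.72 and -2.77 in TS, at least 5.03-fold lower in RG (adjusted p = 0.000302). A serine protease (VIT_02s0012g00180) was 4.11-fold lower in RG, with -0.33, -0.53 and 0.58 against 1.70, 1.64 and 2.50 (-2.04, SE 0.34, adjusted p = 5.61e-05). A gene annotated only as protease (VIT_03s0063g02010) was higher in RG by 1.18 (adjusted p = 0.0168), a call that 6 of 20 alternatives lost.

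In IT, whose arrays of S3 and S4 chose no gene, 55 of the 112 genes changed from pea size to veraison, 5 up and 50 down, against 24.6% of all probes (10.4% up and 14.2% down) and 37.9% of the other probes of the tables (11.6% up and 26.4% down). The median log2 change was -1.24 over the 112 genes and 0.10 over all probes. Markers moved in the same step: the summed log2 signal of the green tissue markers ran from 6.75 to 7.31 at S3 and 2.14 to 2.72 at S4, that of petal and stamen from 0.34 to 1.04 and -1.44 to -0.93, that of ovule and seed coat from 4.53 to 4.998 and 5.18 to 6.23, and the 11S globulin from -6.42 to -5.87 and -1.21 to 8.97. The ovule and seed coat sum was in effect that of VviAGL11, while inner no outer had means of -4.31 at S3 and -5.31 at S4. The part of these tissues in the counts was not tested. The 5 genes that rose were 3 RING or SIAH ligases, 1 F-box gene and UBP12. Arrays of S3 and S4 did not overlap for 72 genes, against 47.8% of all probes. On the 3 slides that held arrays of both stages, 54 of the 55 genes had the same sign on every slide. As these arrays gave the calls, this is a description and not a further test. The count of 55 fell to 35 with the normexp background correction, and no scaling gave 57, all of them down, with the median of all probes at -0.91. The share of all probes called was 17.4% with normexp and 19.6% without scaling. Where only probes well above background on all arrays were kept, 14 of 39 were called.

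**Figure D4:**
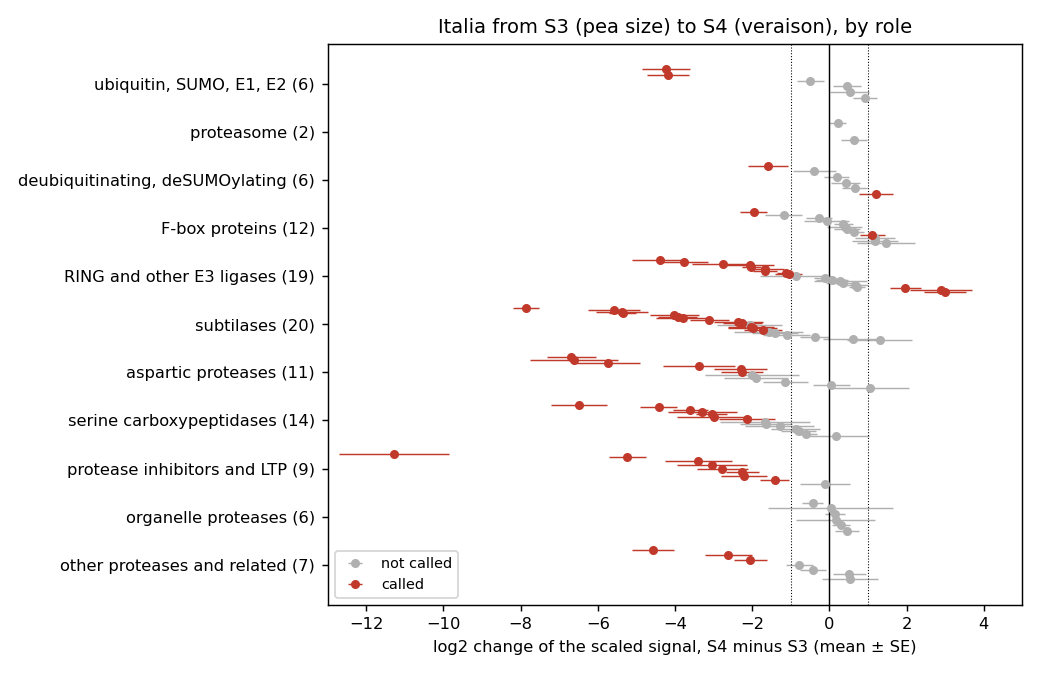
Log2 change of the scaled signal in IT from S3 to S4 (x axis, mean ± SE of the limma fit, 3 arrays per stage) for the 112 genes, grouped by role with the number of genes in brackets (y axis), with called genes in red and dotted lines at ±1. Called subtilases, aspartic proteases, serine carboxypeptidases and inhibitors all lie left of -1, with the inhibitor/LTP gene VIT_02s0154g00320 farthest at -11.27.

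IT and RG also differed from each other at S4. RG minus IT was called for 42 genes, 12 higher and 30 lower in RG, against 29.2% of all probes (11.8% and 17.4%), and IT minus TS for 48 genes, 24 in each direction, against 29.1% (15.9% and 13.2%). Both comparisons share IT arrays with each other and RG or TS arrays with the comparison of RG and TS, and the IT slides cannot be told apart from the variety. The first share (37.5%) is close to that of the other probes of the tables (38.4%), and so is the second (42.9% against 37.7%). Leaving out 1 array moved the first count between 28 and 49, and quantile normalization split its calls into 18 higher and 20 lower.

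Before S3, RG and TS differed in few genes of the S3 list. At S1, 8 of the 57 genes were called, 4 in each direction, against 5.58% of all probes (2.73% higher and 2.85% lower), and at S2 5 genes, 4 higher and 1 lower, against 4.95% (1.94% and 3.01%). Of the other probes of the S3 list 13.2% were called at S1 (12.3% higher and 0.881% lower in RG) and 10.8% at S2 (10.2% and 0.674%). The list as a whole thus leans to higher values in RG at both stages. Without the 6 genes that are also in the S1 or S2 list, 5 of 51 genes were called at S1 (3 higher, 2 lower) and 4 of 51 at S2 (3 higher, 1 lower). The RING gene VIT_06s0004g00120 was higher in RG at S1, S2 and S4: its arrays measured -0.28, -0.03 and -0.06 in RG and -1.66, -1.12 and -0.78 in TS at S1, and the differences were 1.06, 1.24 and 1.25 (adjusted p = 0.00531, 0.00144 and 0.000288 from limma). At all 3 stages the arrays of RG and TS did not overlap. A CAAX amino terminal protease gene (VIT_01s0010g02170), of a family of membrane proteases, was higher in RG at S1 and S2 by 1.17 and 1.31 (adjusted p = 0.00205 and 0.000748) and had a difference of -0.03 at S4, where it was not called. The RING gene VIT_02s0087g00420 was higher in RG at S1 by 1.20 (adjusted p = 0.0182) and lower at S4 (-1.91, adjusted p = 4.92e-05). These counts are small and moved with the scaling (without scaling 1 gene was called at each stage, higher in RG, and with normexp 1 at S1, also higher), with the fit (0 at S1 and 1 at S2 by limma on only the arrays compared, and 0 at both with the methods' t-test, against 8 and 7, and 7 and 6, at an unadjusted p below 0.05) and with single arrays: without RG S1 replicate 2, RG S1 replicate 3 or TS S1 replicate 1 the count at S1 was 5, 4 and 4, and without RG S2 replicate 1 or 2 or TS S2 replicate 1 or 2 the count at S2 was 3.

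In IT 11 of the 57 genes of the S3 list changed from S2 to S3, 10 up and 1 down, against 8.88% of all probes (3.89% up and 5% down), and 10 of 51 without the 6 genes of both lists. Of the other probes of the S3 list 14.5% were called, 13.4% up and 1.09% down, so that the lean to rises is shared by the list. The largest rises were those of aspartic proteases and a carboxypeptidase. VvAP38 (VIT_16s0039g02600) rose from -4.05, -3.65 and -4.67 to -1.56, -0.21 and 0.09, by 3.56 (SE 0.83, adjusted p = 0.00588 from limma, at least 11.8-fold). VvAP34 rose from 0.49, 1.02 and 0.24 to 3.74, 4.18 and 4.15, by 3.44 (adjusted p = 0.017), and serine carboxypeptidase II (VIT_12s0055g00820) from -5.13, -5.22 and -4.94 to -1.37, -2.02 and -3.19, by 2.90 (adjusted p = 0.0103, at least 5.67-fold). In each of the 3 genes all arrays of S3 lay above those of S2. The gene that fell was a subtilisin protease (VIT_19s0015g01420), from -2.25, -1.51 and -2.26 to -5.79, -5.44 and -5.43 (-3.55, adjusted p = 0.00073). With slide as a block within IT, where S2 and S3 share 1 slide, the count was 1.

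Among the 60 genes of the S1 and S2 lists, RG and TS differed at S3 in 16, 3 higher and 13 lower in RG, against 23.5% of all probes (9.45% higher and 14.1% lower) and 42.3% of the other probes of these lists (12.8% higher and 29.5% lower). Without the 6 genes that S3 also chose, 13 of 54 were called (24.1%) and all 13 were lower in RG, a direction that the S2 list shares, since 45 of its 49 genes were chosen as lower in SD. The share is near that of all probes, and without scaling 3 of the 60 were higher and 7 lower. The lowest were the 3 chromosome 16 subtilases, and the DJ-1 type gene VIT_15s0024g01260, of a family of small glutamine amidotransferase-like proteins, measured -7.18, -5.93 and -7.78 in RG and -3.85, -2.90 and -3.27 in TS, a difference of -3.62 (adjusted p = 0.000366 from limma) and at least 9.27-fold.

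From S3 to S4 the same 60 genes fell more often than they rose in both varieties. In RG 30 were called, 6 up and 24 down, against 31.3% of all probes (15.3% up and 16% down), and in TS 31, 4 up and 27 down, against 24.5% (10.4% up and 14.1% down). Of the other probes of the S1 and S2 lists 49.6% were called in RG (17.1% up and 32.6% down) and 42.9% in TS (12.7% up and 30.2% down). The share in RG is thus near that of its lists, and the lists also lean to falls. With normexp the split in RG was 7 up and 15 down. Without the 6 genes of both lists the counts were 24 of 54 in RG (5 up, 19 down) and 25 of 54 in TS (3 up, 22 down). In IT 25 of the 60 fell and 3 rose, against 14.2% and 10.4% of all probes and 27.9% and 14.3% of the other probes of these lists. Of the 60 genes, 15 fell in all 3 varieties, 1 rose in all 3, and none was called in opposite directions in RG and TS. These joint counts were not taken over all probes or the other probes of the lists. They are therefore a description and show nothing particular to these genes. The gene that rose in all 3 was the RING gene VIT_19s0015g01000, by 5.12 in RG from -4.63, -4.42 and -6.75 to 0.11, 0.19 and -0.74 (adjusted p = 1.84e-08 from limma, at least 33.0-fold), by 2.24 in TS and by 3.00 in IT (adjusted p = 0.00246 and 0.000103). In TS an F-box gene (VIT_06s0080g00370) also rose, by 1.38 (adjusted p = 0.022), a call that 9 of 18 alternatives lost.

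The change from S3 to S4 was then compared between RG and TS. The difference of both changes was called for 24 of the 60 genes, 11 with a larger value in RG and 13 with a lower one, against 20.8% of all probes (10.4% in each direction) and 34% of the other probes of these lists, and for 21 of 54 without the 6 genes of both lists (11 and 10). Leaving out RG S4 replicate 1 gave 16 genes. RGLG2 (VIT_00s0780g00040) had the largest positive difference, 7.64 (SE 1.14, adjusted p = 1.52e-05 from limma), from its fall in TS. It was followed by the DJ-1 type gene VIT_15s0024g01260, 4.59 (adjusted p = 0.00151), and the inhibitor/LTP gene VIT_08s0007g01370, 4.28 (adjusted p = 0.00131), from its rise in RG. The subtilase VIT_13s0047g00200 had -5.03, from its fall in RG. Of the chromosome 16 subtilases VIT_16s0098g01160 and VIT_16s0098g00970 were called with 2.43 and 2.81 (adjusted p = 0.0149 and 0.0165), as they fell more in TS, and VIT_16s0098g00950 was not (2.74, adjusted p = 0.0528).

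**Figure D5:**
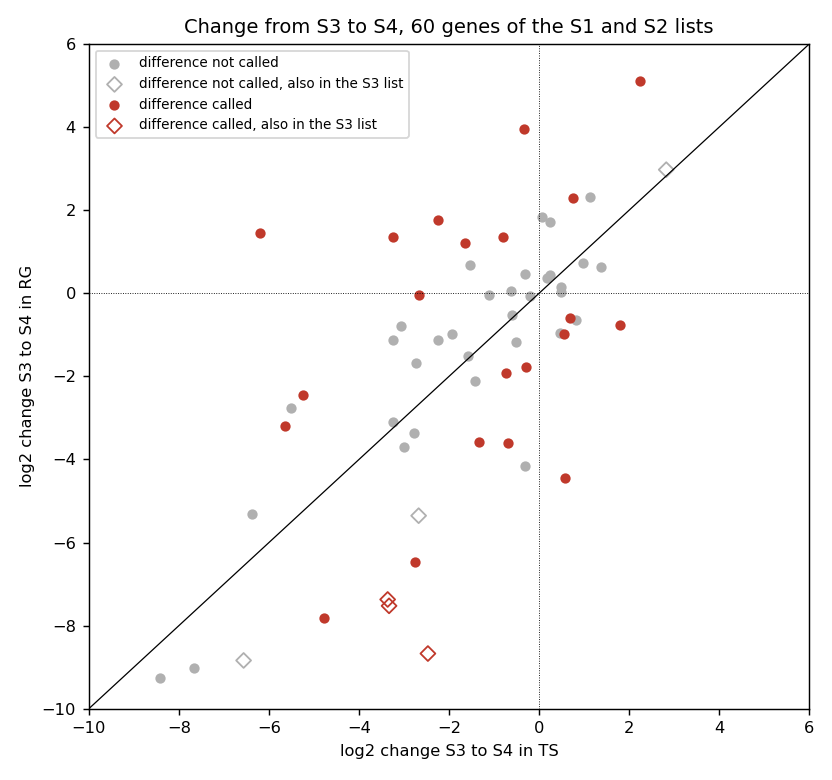
Log2 change of the scaled signal from S3 to S4 in TS (x axis) and in RG (y axis) for the 60 genes of the S1 and S2 lists, each point 1 gene and each change a difference of means of 3 arrays, with red points where the difference of both changes was called and open diamonds for the 6 genes also in the S3 list, which are shown as a description. Most points lie in the lower left, where both varieties fell, and the point at -6.19 on the x axis and 1.45 on the y axis is RGLG2.

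Related genes of proteolysis in the same tables whose annotation lacks the words used above (cullins, U-box proteins, the anaphase-promoting complex, peptidases, autophagy proteins and others, 22 genes) were called in 13.6% between RG and TS at S4 and in 31.8% in IT from S3 to S4, against 16.8% and 24.6% of all probes. Between RG and TS, 1 was higher and 2 lower in RG: a U-box ligase (VIT_06s0004g01260, 1.62), a U-box protein with armadillo repeats (VIT_01s0011g04770, -1.03) and APC6 (VIT_19s0014g01170, -1.18), a subunit of the anaphase-promoting complex, a ligase of the cell cycle. In IT from S3 to S4, 1 rose and 6 fell. The gene that rose was a peptidase C14 with a caspase-like catalytic subunit (VIT_03s0017g01010), a family of metacaspases in plants known from programmed cell death, by 3.80 (SE 0.72, adjusted p = 0.000178 from limma). Its probe was well above background on no IT array at S3, on all 3 at S4 and on no RG or TS array at S4. No sequence of these genes was matched in the tables used here, and locations are those that the gene names carry.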

How the data were processed

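Cy3-labelled RNA was hybridised to 36 Agilent arrays. The authors deposited each array's scanner output, with processed signal intensity values from Agilent Feature Extraction (10.7.1.1 in the file headers), already background-subtracted, and a matrix of 22683 probes whose values lay within 0.1% of the unscaled spot means in 99.149% of cases and were therefore not percentile-scaled. Genes are named after version 1 of the grapevine gene annotation as the study's tables give them, and no RefSeq entry matched them.

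Unflagged, non-control spots of a probe were averaged, converted to log2 and reduced by the array's 75th percentile, as in the study's normalization, and 124 of 26688 probes without an unflagged spot on every array were left out. Groups were compared with limma 3.58.1 in R 4.3.3, fitted to 12 group means over 36 arrays, with Benjamini-Hochberg adjustment over all probes that passed the filter. The study's own test, a t-test, was run as an alternative, with its p-values adjusted in the same way unless they are called unadjusted. An exact permutation test of 3 arrays against 3 cannot give a p below 0.1. Python 3.11.15, NumPy 2.4.6, pandas 2.3.3 and matplotlib 3.10.9 were used for tables and figures, and the fit was tested on simulated data. The number of arrays limits the precision.

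The genes, the lists and the markers were chosen with earlier results of these data known. Named were all genes of ubiquitin, SUMO, E1, E2 and the proteasome and all genes in at least 2 lists, then per role the 2 highest and 2 lowest called differences between RG and TS at S4, and for each other comparison, among called genes detected in both groups (on 1 array or more), the 3 that rose most and the 3 that fell most.

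Same-numbered arrays of RG and TS deviated together from their group means at S4 (correlations of 0.476 to 0.681), S1 (0.491 to 0.804) and S2 (0.58 to 0.773), and where all 3 pairs shared a slide (S1 and S4) the number follows the slide. In the other comparisons not every pair was above 0.1. Alternatives were another scaling or none, quantile normalization, the normexp background correction with an offset of 50, other filters, the values of the matrix, fits to fewer arrays, replicate, slide and scan day blocks, and each array left out.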

Additional observations from a re-analysis of the deposited data

Results flagged for a closer look

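The change from S3 to S4 differed between RG and TS for 24 of the 60 genes of the S1 and S2 lists by limma (21 of 54 without the genes also chosen at S3), a test of the difference between both changes, against 20.8% of all probes and 34% of the other probes of these lists. Among the named ones, the difference of RG from TS on the log2 scale was 7.64 for RGLG2 (VIT_00s0780g00040), 4.59 for the DJ-1 type gene VIT_15s0024g01260, 4.28 for the inhibitor/LTP gene VIT_08s0007g01370 and -5.03 for the subtilase VIT_13s0047g00200. For 2 genes that were also chosen at S3, the RING gene VIT_19s0090g00400 (-6.20) and the subtilase VIT_10s0003g02220 (-4.19), the value is a description, since S3 arrays of RG and TS entered the choice.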

How the results depend on the processing

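The number of called genes moved by over 1.5 times under these alternatives. Without scaling it was 15 for RG against TS at S4 and 10, 1 and 1 at S3, S1 and S2, 20 for RG against IT, 23 for IT against TS at S4, and 9 for the difference of changes between RG and TS. With normexp it was 16 for RG against TS at S4 and 1 at S1, 35 for IT from S3 to S4, 23 for RG against IT, 20 for IT against TS, 17 for TS from S3 to S4 and 14 for the difference of changes. With only probes well above background on all arrays, which left fewer genes to test, it was 15, 3, 3 and 3 for RG against TS at S4, S3, S1 and S2, 14 and 3 for IT from S3 to S4 and from S2 to S3, 13 for RG against IT, 16 for IT against TS, 8 and 6 for RG and TS from S3 to S4 and 5 for the difference of changes. Fitting only the arrays of both groups it was 21, 0 and 1 for RG against TS at S4, S1 and S2 and 17 for IT from S2 to S3. With the methods' t-test after Benjamini-Hochberg it was 10, 0 and 0 for RG against TS at S4, S1 and S2, 13 for RG against IT, 15 for IT against TS, 4 for IT from S2 to S3 and 18 for TS from S3 to S4. At an unadjusted p below 0.05 limma on those arrays alone gave 8 genes at S1 and the t-test 7 at S1 and 6 at S2. Before adjustment the t-test gave 35, 21, 7 and 6 genes for RG against TS at S4, S3, S1 and S2, 57 and 22 for IT from S3 to S4 and from S2 to S3, 33 and 41 for RG against IT and IT against TS, and 33 and 30 for RG and TS from S3 to S4. Quantile normalization gave 17 for IT from S2 to S3 and, for RG against IT, 47.4% of calls higher in RG against 28.6%. A random block of slide or, chosen after seeing the data, of scan day gave 8 for RG against TS at S2, and slide as a block within IT, also chosen after seeing the data, gave 1 for IT from S2 to S3. Without the 6 genes of both lists, likewise an added alternative, RG and TS differed in 5 genes at S1. The share of all probes called moved between these settings too. For RG against IT, for example, it was 29.2% in the main fit, 11.6% without scaling and 12.9% with normexp. The causes of these shifts were not tested.

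Leaving out 1 array gave 31 to 41 genes for RG against TS at S4, 14 to 16 at S3, 4 to 6 at S1 and 3 to 6 at S2, 48 to 52 for IT from S3 to S4, 28 to 49 for RG against IT (28 without RG S4 replicate 1), 39 to 50 for IT against TS, 9 to 14 for IT from S2 to S3, 30 to 32 and 23 to 32 for RG and TS from S3 to S4 and 16 to 25 for the difference of changes. Other alternatives kept the counts within 1.5 times. With the replicate number as a block the counts were 42, 16, 9 and 5 for RG against TS at S4, S3, S1 and S2, 58 and 12 for IT from S3 to S4 and from S2 to S3, 43 for RG against IT, 50 for IT against TS, 32 and 31 for RG and TS from S3 to S4 and 27 for the difference of changes. In the fit of all arrays it changed the call of UBP12 alone among the named genes.

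Of the 1693 alternative values of 90 named differences, 1489 kept their direction and side of the threshold, 182 lost the call, 2 gained one and 20 had the other sign. Only 28 of the 90 differences kept their side in all alternatives. Most calls were lost with the methods' t-test (40), without scaling (30), with normexp (25) and with only the arrays compared (19). The values with the other sign concern differences of RG from TS at S4 that were not called. Quantile normalization gave 0.12 for SUMO2, -0.0922 for UBQ5 and 0.0072 for SUM2, and the percentile over probes well above background -0.0125 for UBQ5. Leaving out 1 array gave -0.54 to 0.18 for ECR1, -0.87 to 0.51 for SUMO2, -1.29 to 0.40 for E2 C, -0.22 to 0.24 for UBQ5, -0.0609 to 0.12 for RPN2, -0.18 to 0.58 for VIT_18s0072g00780, -0.74 to 0.093 for SUM2, -2.43 to 0.34 for VvAP33, -2.33 to 0.33 for VIT_03s0091g01290, -1.55 to 0.21 for VIT_10s0003g02170 and -1.87 to 0.0659 for VIT_10s0003g02220. The t-test was not run for the difference of changes, and slide as a fixed block was not run where IT is set against RG or TS. Genes not well above background at S4 have only a bound there, and their differences are not measured beyond it.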
